A study of Mus musculus with 4 samples.

Results

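The replication-dependent histone genes encode the linker histones H1 and the core histones H2A, H2B, H3 and H4 that package newly copied DNA. They were taken by symbol: H2ac, H2bc, H3c or H4c followed by a number, or H1f1 to H1f5. Of 26172 genes named in the deposited gene lists, 63 met this rule: 5 H1, 17 H2A, 17 H2B, 11 H3 and 13 H4 genes. The cells came from MC38 tumours, grown from a mouse colon carcinoma line, in 10-week-old mice of 2 genotypes, wild-type and FOXP3 humanized, sacrificed on day 20. Tumours were dissociated, and immune cells were enriched by Percoll gradient centrifugation with no treatment in either genotype. Each genotype has 1 cDNA library of single cells; the 2 oligo libraries that the labels also name were not analysed here. The labels do not give the number of mice behind a library, how FOXP3 was humanized, or the mouse strain. With 1 library per genotype there is no replicate, no test between genotypes is possible, and genotype, mouse and library cannot be told apart. All intervals below are 95% exact intervals that cover counting error only.

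Most cellular histone mRNA is made in S phase, when the cell copies its DNA. These mRNAs usually end in a conserved stem-loop that is bound by the protein encoded by Slbp, in place of a poly(A) tail, and they are degraded when DNA synthesis stops. Several of the genes can also give polyadenylated transcripts. A droplet library that primes on poly(A) tails would count stem-loop mRNAs only in part; how cDNA was primed is not given in the sources used here. Mcm5, a subunit of the replicative helicase, and Pcna, the sliding clamp of the DNA polymerases, mark cells in or near S phase. Mki67 marks cycling cells and is most abundant in G2 and mitosis.

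Histone levels were described over deep barcodes, those with 5000 or more unique molecular identifiers (UMIs, 1 per captured mRNA molecule) and no UMI of Cd3e, Cd3d, Cd3g or Ptprc, which mark T cells and leukocytes. There were 6705 such barcodes of 7691 in the wild-type library (median 16866 UMIs, 129144384 in all) and 9671 of 11087 in the FOXP3 humanized library (median 12522 UMIs, 140575771 in all). The leukocyte gate removed 113 and 223 barcodes. Although the labels name immune cells, the deep barcodes lacked leukocyte markers: 6 T cell markers summed to 0.619 and 0.669 UMIs per 1000000 UMIs (CPM) in the wild-type and humanized libraries, with Cd3e, Cd3d and Cd3g at 0 by the gate. For macrophages and monocytes, 7 markers summed to 5.34 and 5.15 CPM, nearly all Cd68. Epithelial or carcinoma markers were low as well, 6 of them summing to 5.71 and 3.09 CPM with Krt20 at 0, while 6 fibroblast markers summed to 128 and 144 CPM, mostly Col1a2 and Dcn, with Lum at 1 and 0 UMIs. The 2 libraries share 1551 barcode names, but these are numbered labels and not nucleotide barcodes, so a shared name does not show a shared cell.

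The stem-loop was searched in the mouse transcript models of GENCODE M21, matched through RefSeq accessions, because it is the element that sets these mRNAs apart. The search was for the 16-base histone stem-loop on the sense strand. Models were found for 59 of 63 members, of which 37 held it, against 0.205% of 21901 protein-coding genes; in 9 members the models hold coding sequence alone and so cannot contain it. The most frequent form is shown with the 2 forms found in H4 genes, with the 4 bases of the loop in capitals.

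H1, H2A, H2B and H3 genes (23 members, among them H1f2, H1f4 and H2ac6): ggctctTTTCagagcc

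H4 genes (6 members): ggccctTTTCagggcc

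H4c9 and 1 other H4 gene: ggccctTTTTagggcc

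The first form stood in 8 of the genes that rose with Mcm5 and Pcna and in 5 of those that fell, so the stem-loop letters did not separate the 2 patterns described below. Upstream sequences are shown for 2 pairs from 1 family each, chosen because their levels went opposite ways along Mcm5 and Pcna: H1f5 (higher) and H1f2 (lower), and H2ac4 (higher) and H2ac6 (lower). Each is the 250 bases before the start of the gene in RefSeq on GRCm38.p6, read 5′ to 3′ on the gene's strand: chr13:21780626-21780875 on the minus strand for H1f5, chr13:23738557-23738806 on the plus strand for H1f2, chr13:23750838-23751087 on the plus strand for H2ac4 and chr13:23683960-23684209 on the minus strand for H2ac6. Capitals mark 4 motifs searched on both strands: the TATA box (letters TATAAA), the CCAAT box, the octamer (letters ATTTGCAT) and the H1 box (letters AAACACA).

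H1f5: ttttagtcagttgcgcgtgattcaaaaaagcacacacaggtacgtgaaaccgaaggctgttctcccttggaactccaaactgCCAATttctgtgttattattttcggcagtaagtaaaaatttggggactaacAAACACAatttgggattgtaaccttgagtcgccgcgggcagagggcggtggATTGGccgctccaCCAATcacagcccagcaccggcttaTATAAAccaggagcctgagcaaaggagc

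H1f2: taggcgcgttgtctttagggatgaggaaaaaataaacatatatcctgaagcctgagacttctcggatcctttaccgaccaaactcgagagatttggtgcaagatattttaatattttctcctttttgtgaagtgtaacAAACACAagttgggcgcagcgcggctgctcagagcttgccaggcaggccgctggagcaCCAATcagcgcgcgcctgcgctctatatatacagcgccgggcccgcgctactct

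H2ac4: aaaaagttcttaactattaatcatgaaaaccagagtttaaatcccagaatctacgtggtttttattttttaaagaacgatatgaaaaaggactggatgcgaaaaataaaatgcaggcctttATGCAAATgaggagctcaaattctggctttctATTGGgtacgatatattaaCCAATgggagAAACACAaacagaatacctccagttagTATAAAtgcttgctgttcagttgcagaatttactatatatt

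H2ac6: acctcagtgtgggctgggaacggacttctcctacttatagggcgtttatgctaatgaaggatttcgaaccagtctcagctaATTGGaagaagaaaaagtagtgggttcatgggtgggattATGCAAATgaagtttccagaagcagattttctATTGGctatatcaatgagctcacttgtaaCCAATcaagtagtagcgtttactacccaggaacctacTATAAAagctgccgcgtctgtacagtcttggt

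The CCAAT box stood in the 300-base RefSeq promoter window (250 bases before to 50 after the start) of 46 of the 54 members with an entry, 85.2%, against 37.9% of 27025 promoters; among H4 genes it stood in 3 of 11. The TATA box was found in 59.3% of the members (14.2% of all promoters) and the octamer in 18.5% (1.75% of all). The H1 box was in 4 of 5 H1 promoters and in 7.14% of all. H1f5 and H1f2 both carried CCAAT and the H1 box, and H2ac4 and H2ac6 both carried the TATA box, the CCAAT box and the octamer. The pairs also differed: the letters TATAAA stood in H1f5 and not in H1f2, and the letters AAACACA in H2ac4 and not in H2ac6. H1f2 holds the letters tatatata after its CCAAT box. The search took exact letters only, so a missing match does not show that a promoter lacks the element. CCAAT was present in 17 of 17 matched promoters of genes that rose with Mcm5 and Pcna and in 5 of 6 of those that fell. A match is a description of letters and not a binding site.

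Of the 63 members, 57 had 100 or more UMIs over the deep barcodes of both libraries and are called measured: 4 of 5 H1, 16 of 17 H2A, 15 of 17 H2B, all 11 H3 and 11 of 13 H4 genes. Of the rest, 4 had 1 to 99 UMIs (in H2A, H2B and H4) and 2, H1f1 and H2bc27, had none. Together the members gave 969.6 CPM in the wild-type and 896.6 CPM in the humanized library. UMIs are not divided by transcript length, so levels are compared within a gene and not between genes. H2bc4, an H2B gene, supplied 35.2% of all member UMIs in the wild-type library and 43.6% in the humanized library. With H1f2, a linker histone gene, and H4c9, an H4 gene, the share was 65.3% and 72.5%.

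H2bc4 stood at 342 CPM (338 to 345) in wild-type and 391 CPM (388 to 394) in humanized deep barcodes. After each barcode was thinned to 5000 UMIs, 52.3% and 57.1% of barcodes held at least 1 H2bc4 UMI (74.8% and 75% unthinned). Among T barcodes (under 5000 UMIs, 2 or more UMIs of Cd3e, Cd3d and Cd3g; median 1796.5 and 1567.5 UMIs), 10.7% and 8.21% held one without thinning; these are shallower barcodes, so the shares are not at equal depth. H1f2 was at 141 and 142 CPM, with a UMI in 36.0% and 35.6% of thinned barcodes (63.7% and 56.3% unthinned), and H4c9 at 151 and 117 CPM. H2ac8 was at 49.3 and 30.5 CPM, H1f4 at 42.6 and 31.3, H2ac19 at 33.6 and 28.3, H2ac6 at 21.3 and 15.3, H2ac25 at 19 CPM in each, H4c4 at 16.8 and 10.8, H1f5 at 15.3 and 16.3 and H3c3 at 12.1 and 6.85 CPM. The remaining measured members lay below 10 CPM in both libraries. In this family near-identical copies and genes a short distance apart could share reads, and how the authors' counting split such reads is not given in the sources used here.

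Members divided into opposite patterns along Mcm5 and Pcna. Deep barcodes were placed by their thinned Mcm5 and Pcna UMIs: 3879 wild-type and 5925 humanized barcodes had 0, 1699 and 2500 had 1, and 1127 and 1246 had 2 or more. A gene was called when its CPM differed 1.5-fold or more between the barcodes with 2 or more and those with 0 and the interval of the fold excluded 1. By this rule 18 of 57 measured members were higher in both libraries and 9 were lower in both. Over all 13728 measured genes the shares were 1.96% higher in both and 0.313% lower in both; the latter is 43 genes, 9 of which are histone members. The median fold of all genes was 1.02 and 1.03 (wild-type and humanized), that of the 18 was 1.92 and 2.11 and that of the 9 was 0.392 and 0.563. The rule that picks the 18 and the 9 uses these folds, so the 2 pairs of medians describe them. Barcodes with more Mcm5 and Pcna were also deeper. Median UMIs were 15713 at 0 and 19167 at 2 or more in wild-type, and 11968 and 14044.5 in humanized barcodes. The part of depth in the folds was not tested. With barcodes of 10000 or more UMIs, 17 of the 18 and 8 of the 9 kept their call. That setting does not match depth between the classes.

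Among the 4 measured H1 genes, 2 rose. H1f5 was at 10.4, 17.2 and 27.1 CPM in wild-type barcodes with 0, 1 and 2 or more UMIs, and at 10.9, 20.0 and 31.8 CPM in humanized ones. It went up at each step in each library, by 2.61-fold (2.35 to 2.91) and 2.92-fold (2.64 to 3.24) in all. H1f4 was at 33.9, 50 and 57.6 CPM and at 25, 35.8 and 49.6 CPM, a rise of 1.70-fold (1.59 to 1.81) and 1.99-fold (1.84 to 2.14).

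Among H2A genes, which encode a partner of the H2A-H2B dimer, 9 of 16 rose: H2ac4, H2ac8, H2ac10, H2ac11, H2ac12, H2ac13, H2ac15, H2ac20 and H2ac22. H2ac8 was at 41.9, 54.0 and 64.3 CPM in wild-type and at 26.8, 31.2 and 45.0 CPM in humanized barcodes, 1.53-fold (1.44 to 1.63) and 1.68-fold (1.55 to 1.82) from the lowest class to the highest, just inside the threshold. H2ac4 rose 2.14-fold and 2.12-fold, H2ac15 2.00-fold and 2.40-fold, and H2ac22 2.24-fold and 2.77-fold. H2ac12 rose 2.31-fold (1.45 to 3.65) and 4.25-fold (2.31 to 7.81) from few molecules, 110 and 67 UMIs. In H2B, 3 of 15 rose (H2bc11, H2bc14 and H2bc15, by 1.86-fold to 2.36-fold). In H3, 4 of 11 rose: H3c3 went from 8.99 through 13.2 to 19.7 CPM in wild-type and from 5.31 through 7.64 to 11.9 CPM in humanized barcodes, 2.20-fold and 2.23-fold, with H3c1, H3c2 and H3c11 between 1.82-fold and 2.52-fold. None of the 11 measured H4 genes rose in both libraries.

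Lower in both libraries were H1f2, H2ac6, H2ac19, H2ac25, H2bc4, H2bc24, H3c4, H3c15 and H4c11. All 5 families had a member here. H2bc4 was at 440, 284 and 134 CPM in wild-type barcodes with 0, 1 and 2 or more Mcm5 and Pcna UMIs and at 462, 326 and 215 CPM in humanized ones. Its level in the lowest class was thus 3.27-fold (3.16 to 3.40) and 2.15-fold (2.09 to 2.22) that in the highest. H1f2 fell in the same steps, from 177 through 117 to 69.5 CPM and from 169 through 116 to 81.6 CPM, 2.55-fold (2.42 to 2.69) and 2.06-fold (1.96 to 2.18). H2ac19 went from 44.1 to 17.1 CPM and from 34.5 to 15.1 CPM. H2ac6 went from 27.9 to 10.6 and from 17.6 to 9.92 CPM, and H2ac25 from 22.5 to 12.1 and from 21.5 to 13.1 CPM. H3c4 (8.13 to 3.67 and 6.30 to 4.04 CPM), H3c15 (5.61 to 2.30 and 4.97 to 3.02 CPM) and H4c11 (6.94 to 2.96 and 5.43 to 3.07 CPM) fell from lower levels. H2bc24 had 97 and 98 UMIs, of which 5.15% and 6.12% came from 1 barcode.

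**Figure D1:**
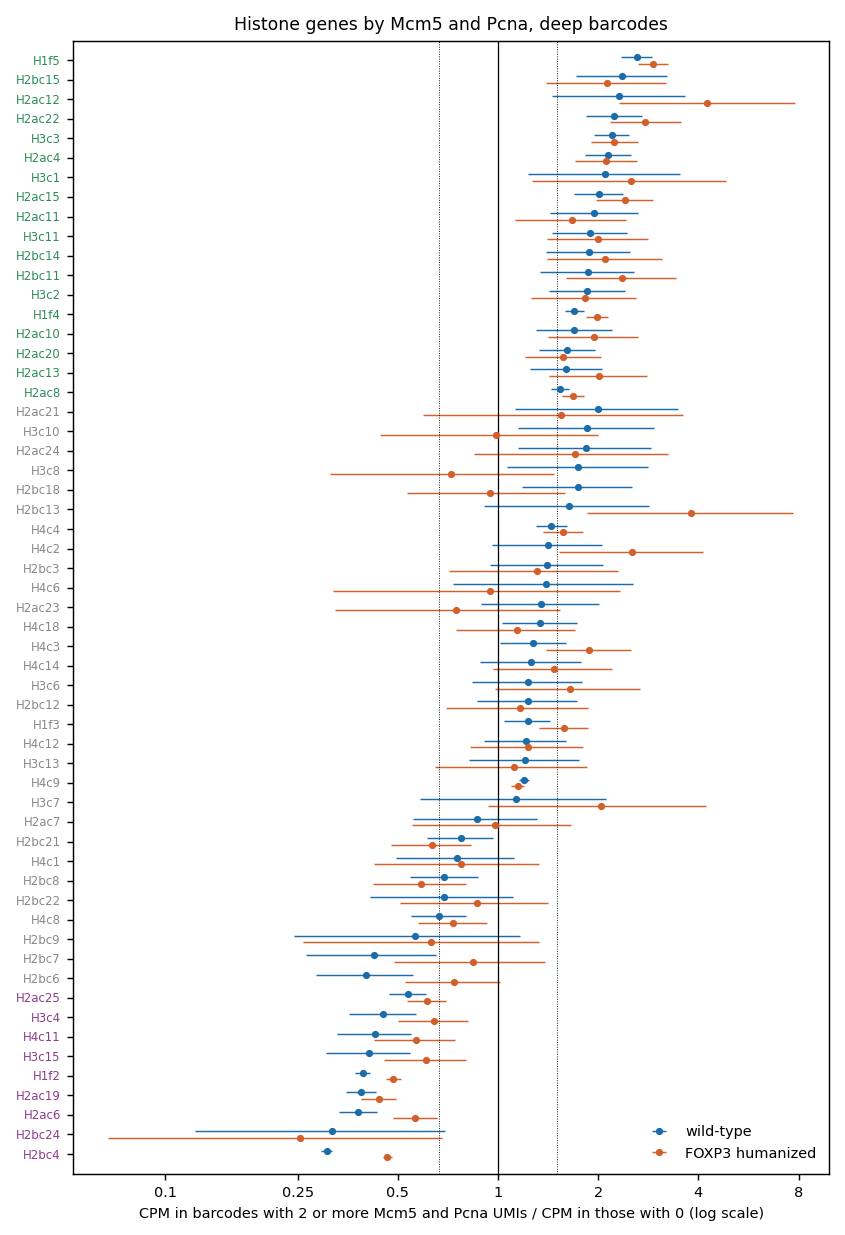
Fold of CPM between deep barcodes with 2 or more and with 0 thinned Mcm5 and Pcna UMIs (log axis) for the 57 measured histone genes, with 95% intervals of counting error; blue is the wild-type and orange the FOXP3 humanized library, and dotted lines mark 1.5-fold either way. Green names are the 18 genes higher in both libraries, purple names the 9 lower in both and grey names the other 30; H1f5 lies at 2.61 and 2.92, H2bc4 at 0.306 and 0.464.

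The other 30 measured members were not called in the same direction in both libraries: 10 were higher in 1 library, 5 were lower in 1, and 15 were called in neither. H4c9 was in the last group at 138, 167 and 165 CPM in wild-type and 112, 121 and 129 CPM in humanized barcodes, a fold of 1.2 (1.15 to 1.24) and 1.15 (1.1 to 1.2). The interval excluded 1 in each library, at a size under the threshold. H4c4 stood just outside it in wild-type, at 1.45-fold (1.30 to 1.61), and inside it in humanized barcodes, at 1.57-fold (1.37 to 1.80). H1f3 (1.23-fold and 1.58-fold) and H4c3 (1.27-fold and 1.88-fold) did likewise. On the other side H2bc6 was at 0.401-fold in wild-type and 0.738-fold in humanized barcodes, H2bc8 at 0.690-fold and 0.587-fold, H2bc21 at 0.772-fold and 0.633-fold, and H4c8 at 0.664-fold and 0.731-fold. Of the 30, 24 had under 1000 UMIs in both libraries together, so that a 1.5-fold difference was not always detectable at this depth.

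The division was wider along a sum of 19 other S-phase genes, among them Mcm2 to Mcm4, Mcm6, Mcm7, Tyms, Rrm2 and Ccne2, which uses neither Mcm5 nor Pcna. Barcodes were split at 0 to 1, 2 to 3, 4 to 5 and 6 or more thinned UMIs. On this axis 28 members were higher in both libraries, 13 lower and 16 neither, against 5.95% and 1.14% of all measured genes. All 18 genes that rose with Mcm5 and Pcna rose here, and all 9 that fell also fell here. Both axes use the same barcodes and histone counts, so this overlap describes the groups and is not an independent check of them. H1f5 went through 2.91, 8.46, 15.4 and 32.0 CPM in wild-type and 4.64, 10.5, 20.2 and 34.5 CPM in humanized barcodes, 11-fold (8.91 to 13.7) and 7.45-fold (6.37 to 8.75) in all. H3c3 rose 7.24-fold and 4.77-fold. H2bc4 went through 564, 426, 278 and 119 CPM and through 590, 442, 273 and 180 CPM, a fall of 4.73-fold (4.57 to 4.88) and 3.28-fold (3.19 to 3.38). H1f2 fell 3.66-fold and 3.17-fold, and H2ac19 5.16-fold and 3.37-fold. H2bc6, H2bc8, H2bc22 and H4c8 joined the genes lower in both libraries, and H1f3, H4c2, H4c3 and H4c4 were among the 10 that joined those higher in both. H4c9 again stayed under the threshold, at 1.30-fold and 1.19-fold.

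**Figure D2:**
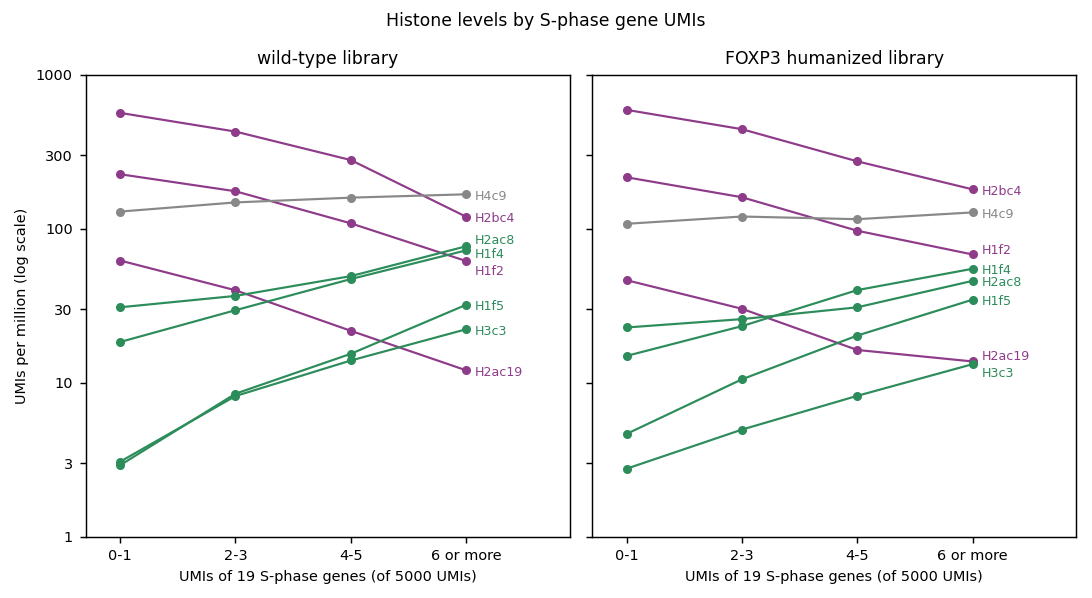
CPM (log axis) of 8 histone genes in deep barcodes split by their thinned UMIs of 19 S-phase genes, with the wild-type library on the left and the FOXP3 humanized library on the right. Purple lines (H2bc4, H1f2 and H2ac19) fall, green lines (H2ac8, H1f4, H1f5 and H3c3) rise, and H4c9 in grey goes from 129 to 167 and from 107 to 127.

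Mki67 gave a different order. Only 1131 wild-type and 1569 humanized barcodes held a thinned Mki67 UMI, so the comparison was of these with the rest. Of 57 members 24 were higher in both libraries (2.31% of all measured genes) and 1, H2ac19, was lower in both (0.146%). H2ac19 was at 37.6 CPM without and 17.6 CPM with Mki67 in wild-type and at 31.4 and 14.5 CPM in humanized barcodes, 2.14-fold (1.94 to 2.37) and 2.16-fold (1.94 to 2.41) lower. H2bc4 was 1.24-fold and 1.29-fold lower and H1f2 1.19-fold and 1.23-fold lower, both under the threshold. H2bc24 was called in opposite directions, at 1.90-fold (wild-type) and 0.506-fold (humanized), from 97 and 98 UMIs. H2ac25 was at 1.12-fold (1.01 to 1.23) and 1.02-fold (0.923 to 1.12). Of the 18 genes that rose with Mcm5 and Pcna, 16 rose with Mki67 (H2ac12 and H3c1 did not pass in the humanized library, at 1.51-fold and 1.45-fold). H1f4 rose 2.05-fold and 2.11-fold, H1f5 2.19-fold and 2.32-fold, and H3c3 2.40-fold and 2.31-fold. Another 8 genes were called higher in both libraries with Mki67 but not with Mcm5 and Pcna: H1f3, H2ac24, H2bc3, H2bc12, H2bc18, H3c10, H4c3 and H4c4. Missing that call does not show that a gene was level along Mcm5 and Pcna. H2ac24, for instance, was at 1.84-fold and 1.70-fold there, called in wild-type only. All of these genes except H2bc3 were called higher in both libraries on the S-phase list.

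With a sum of 12 G2 and mitosis genes (Top2a, Ccnb1, Cdk1, Plk1 and others, without Mki67) in place of Mki67, 40 members were higher in both libraries and 3 were lower in both (H2ac6, H2ac19 and H2bc4), against 6.54% and 1.22% of all measured genes. H1f5 went through 1.70, 6.04, 23.8 and 27.5 CPM in wild-type barcodes with 0 to 1, 2, 3 to 7 and 8 or more UMIs of the list, and through 2.53, 6.94, 25.4 and 26.7 CPM in humanized ones. H4c9 passed the threshold on this axis, from 103 to 175 CPM and from 78.8 to 145 CPM, 1.69-fold and 1.84-fold. H2bc24, lower with Mcm5 and Pcna, was higher here, 4.24-fold (2.31 to 8.31) and 3.05-fold (1.56 to 6.31).

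The 2 lists were then crossed, a step chosen after seeing the data: a barcode counted as high on a list above the list's median over both libraries (3 thinned UMIs for the S-phase list and 2 for the G2 and mitosis list). Barcodes low on both lists numbered 2636 and 3688 (wild-type and humanized), high on the S-phase list alone 894 and 1156, high on both 1994 and 2517, and high on the G2 and mitosis list alone 1181 and 2310. All 18 genes that rose with Mcm5 and Pcna were highest in barcodes high on both lists, in both libraries, and 15 of them were lowest in barcodes low on both. None of the 9 opposite genes was highest there; 6 of the 9 were lowest, in both libraries, in barcodes high on the S-phase list alone. The 18 and the 9 were picked in these same barcodes, so these counts describe them.

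Summed over the 18 genes, the level was 49.4, 62.7, 306 and 167 CPM in wild-type barcodes low on both, high on S-phase genes alone, high on both and high on G2 and mitosis genes alone. The humanized values in the same order were 35.4, 56.2, 213 and 117 CPM. The first and second states differed less than the second and the third. The 9 opposite genes summed to 825, 374, 293 and 812 CPM in wild-type and 842, 366, 342 and 753 CPM in humanized barcodes, low in both S-phase states and about as high with G2 and mitosis genes alone as with neither. H2bc4 itself was at 486, 230, 165 and 504 CPM and at 535, 244, 212 and 489 CPM. H1f2 was at 197, 88.4, 77.0 and 202 CPM and at 191, 73.7, 83.4 and 182 CPM.

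H2ac19 did not share this return. Its level was 67.6, 24.8, 12.5 and 22.5 CPM in wild-type and 53.0, 21.6, 12.2 and 19.9 CPM in humanized barcodes, so that barcodes low on both lists held more than any other state. H3c15 was at 4.25, 1.79, 3.87 and 8.63 CPM and at 4.76, 1.61, 3.95 and 5.54 CPM, highest in both libraries with G2 and mitosis genes alone. H2ac25 was highest in the same state in both libraries (27.4 and 23.3 CPM, against 22.8 and 22.2 CPM low on both). H4c9, called on neither Mcm5 and Pcna nor Mki67, was at 111, 113, 183 and 184 CPM and at 84.3, 83.1, 137 and 149 CPM: it differed by the G2 and mitosis list and hardly by the S-phase list.

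**Figure D3:**
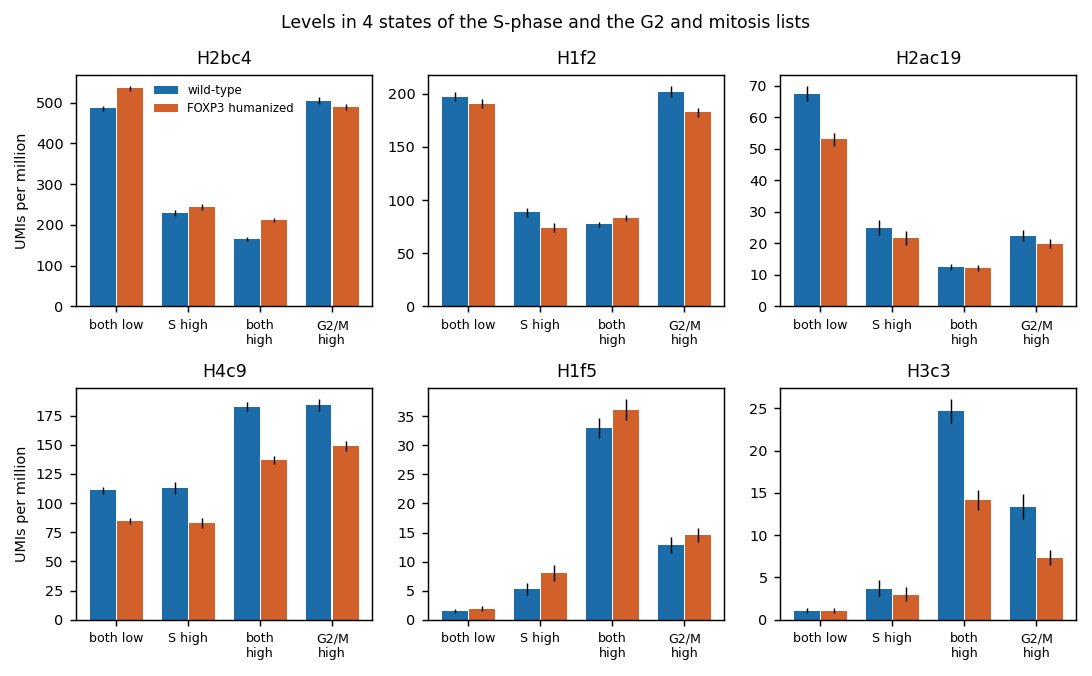
CPM of 6 histone genes in deep barcodes low on both lists, high on the S-phase list alone, high on both, and high on the G2 and mitosis list alone (G2/M high); bars are levels in the wild-type (blue) and FOXP3 humanized (orange) libraries and whiskers 95% intervals of counting error. H1f5 and H3c3 peak where both lists are high, H2bc4 and H1f2 are high where S-phase genes are low, and H2ac19 is high only where both lists are low.

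H2bc4 also varied among barcodes with few transcripts of either list. In a second comparison added after seeing the data, barcodes in the lowest class of both lists (0 to 1 thinned UMIs each; 1334 wild-type and 1851 humanized barcodes) were divided by H2bc4: 446 and 684 held 3 or more thinned H2bc4 UMIs and 404 and 536 held 0. Of all measured genes, 43 (0.313%) were 1.5-fold or more higher in the H2bc4-rich barcodes in both libraries, and 16 of the 43 were histone members other than H2bc4. They included 7 of the other 8 opposite genes, 8 of the 30 genes called neither and 1 of the 18 that rose with Mcm5 and Pcna (H2ac8). Lower in both libraries were 14 genes (0.102%), no histone member among them.

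H1f2 stood at 330 CPM in H2bc4-rich and 77.7 CPM in H2bc4-free wild-type barcodes and at 327 and 75.1 CPM in humanized ones, 4.25-fold (3.84 to 4.71) and 4.36-fold (3.94 to 4.83). H2ac6, next to H2bc4 in the order of members on chromosome 13, was 5.76-fold and 5.15-fold higher. H3c4 was 5.26-fold and 9.03-fold higher, H4c11 7.37-fold and 3.87-fold, H3c15 5.02-fold and 3.42-fold, H2ac19 2.80-fold and 2.36-fold and H2ac25 1.83-fold and 2.50-fold. Genes called neither that differed were H1f3, H2bc6, H2bc7, H2bc8, H4c1, H4c8, H4c9 and H4c12. H1f5 was at 1.01 and 0.686 CPM in wild-type barcodes, from 7 and 4 UMIs, which cannot show a difference at this depth. The mitotic genes Ccnb2 and Mki67 moved with this split: Ccnb2 was 3.53-fold and 2.95-fold higher and Mki67, at 7.18 against 4.29 CPM and 7.63 against 4.01 CPM, 1.67-fold and 1.90-fold higher in the H2bc4-rich barcodes, while Mcm5 was 0.593-fold and 0.592-fold. Ccnb2 belongs to the G2 and mitosis list that defined these barcodes as low, so the H2bc4-rich and H2bc4-free sets were not matched for it. The part of Ccnb2, Mki67 and Mcm5 in the result was not tested.

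**Figure D4:**
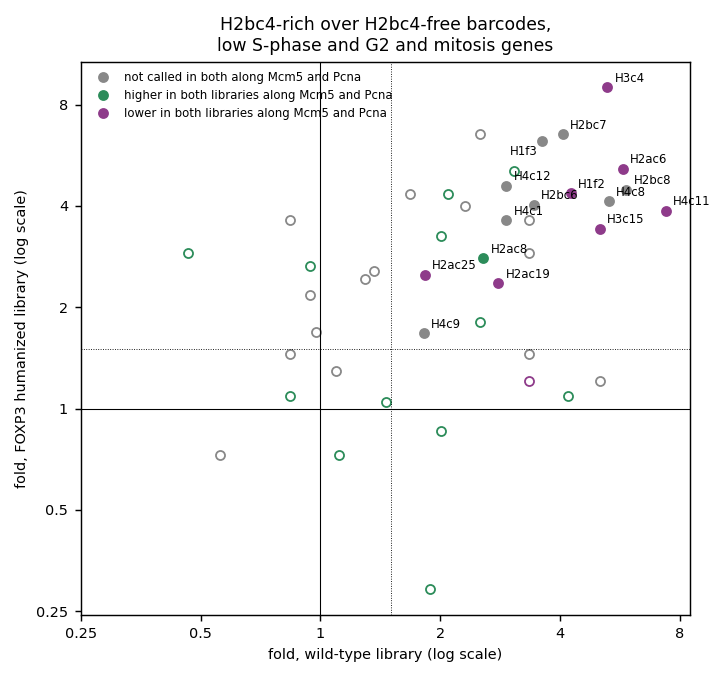
Fold of CPM between barcodes with 3 or more and with 0 thinned H2bc4 UMIs, among deep barcodes low on both lists, in the wild-type (x) and FOXP3 humanized (y) libraries, both on log axes; 44 of the 56 measured members other than H2bc4 have UMIs in all 4 sets and are drawn. Filled, named points are the 16 called higher in both libraries and dotted lines mark 1.5-fold; H1f2 lies at 4.25 and 4.36 and H2ac8 is the only filled green point.

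The genes that make and handle histone mRNA were read beside their targets, from lists chosen with earlier results known. Slbp, which encodes the stem-loop binding protein, went through 59.7, 84.7 and 113 CPM in wild-type and 54.8, 70.2 and 104 CPM in humanized barcodes with 0, 1 and 2 or more Mcm5 and Pcna UMIs, 1.89-fold in each (1.80 to 1.99 and 1.80 to 2.00). Of 14 measured genes of histone transcription and mRNA processing, 3 rose in both libraries and none fell: Slbp, Casp8ap2, which takes part in histone gene transcription (1.73-fold and 1.57-fold), and Eri1, an exonuclease that trims histone mRNA (1.61-fold and 1.55-fold). The list's median fold was 1.28 and 1.19. Of 10 histone chaperones 5 rose: Chaf1a and Chaf1b of chromatin assembly factor 1 (2.27-fold and 1.95-fold, 2.52-fold and 2.93-fold), Asf1b (1.98-fold and 1.96-fold), Nasp (1.76-fold and 1.82-fold) and Hat1, which acetylates new H4 (1.98-fold and 2.19-fold). The median of that list was 1.54 and 1.59. Of all measured genes, 1.96% were higher in both libraries along Mcm5 and Pcna and 0.313% were lower in both.

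Replication-independent histones are not limited to S phase as a class. None was called along Mcm5 and Pcna: 0 of 11 measured genes, with a median fold of 1.09 and 1.09. Since 1.96% of all measured genes were higher in both and 0.313% lower, 0 of 11 does not set them apart from other genes. H3f3b, an H3.3 gene, was at 1.03-fold in wild-type and 0.980-fold in humanized barcodes. H2az1 was 1.36-fold higher in each library, H1f0 at 0.969-fold and 0.980-fold, and H3f3a at 1.08-fold and 1.10-fold. Along the other axes some of the 11 were higher in both libraries and none was lower in both. These were 3 along Mki67, 3 along the S-phase list and 5 along the G2 and mitosis list. The shares of all measured genes higher in both were 2.31%, 5.95% and 6.54%.

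Between the libraries, 30 of 57 measured members were 1.5-fold or more lower in the FOXP3 humanized library and none was higher. The background was uneven: 12.9% of all 13730 measured genes were lower and 0.641% higher, the median log2 ratio (humanized over wild-type) of all genes was -0.21, and among genes with under 1000 UMIs 33.4% were lower with a median of -0.41. The members' median was -0.61. After centring on the median of all genes, 14 members were lower against 6.33% of all genes. Of the axis genes, Pcna was at 76.1 CPM in wild-type and 58.7 CPM in humanized deep barcodes, log2 -0.37 (-0.42 to -0.33). Mcm5 was at 68.6 and 66.7 CPM and Mki67 at 51.4 and 46.7 CPM. None of these was called between the libraries. The libraries also differ in depth per barcode, and the part of depth and library in these ratios was not tested.

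The 3 groups of members differed in how many were lower. Of the 18 genes that rose with Mcm5 and Pcna, 12 were lower in the humanized library, with a median log2 ratio of -0.70 (-0.49 relative to all genes). H3c3 was at 12.1 CPM (11.5 to 12.7) in wild-type and 6.85 CPM (6.42 to 7.30) in humanized barcodes, log2 -0.82 (-0.94 to -0.71), and H2ac8 at 49.3 and 30.5 CPM, log2 -0.69 (-0.75 to -0.63). H2ac4, H2ac11, H2ac12, H2ac13, H2ac20, H2ac22, H2bc14, H2bc15, H3c2 and H3c11 were the others, from -0.94 (H3c2) to -0.61 (H2bc15). The 6 not called were H1f4, H2ac10, H2ac15, H2bc11 and H3c1, from -0.54 to -0.40, and H1f5, at 15.3 and 16.3 CPM, log2 0.09 (-0.00 to 0.17). Of the 30 genes called neither, 18 were lower: H2ac7, H2ac21, H2ac23, H2ac24, H2bc3, H2bc7, H2bc12, H3c6, H3c7, H3c10, H3c13, H4c1, H4c2, H4c3, H4c4, H4c6, H4c12 and H4c18. Their group's median was -0.63.

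None of the 9 opposite genes was called, with a median log2 ratio of -0.11 that becomes 0.10 relative to all genes. H2bc4 was at log2 0.19 (0.18 to 0.21), H1f2 at 0.01 (-0.02 to 0.04), H2ac25 at 0.00 (-0.08 to 0.08), H2ac19 at -0.25 (-0.31 to -0.19) and H2ac6 at -0.47 (-0.56 to -0.39). Of the 11 replication-independent histones none was called either, with a median of -0.05. Counts differ between the groups, and 8 of the 9 opposite genes had 1000 or more UMIs; in that range 5 of 8 rising genes, 1 of 6 called neither and 4.81% of all genes were lower. Within barcodes with 0, 1 and 2 or more Mcm5 and Pcna UMIs, H3c3 was at -0.76, -0.79 and -0.74, a similar ratio in each class. H2bc4 was at 0.07, 0.2 and 0.67: the humanized library held more H2bc4 in the barcodes with the most Mcm5 and Pcna, where its level was 215 against 134 CPM. Averaged over the 3 classes, 28 members and 13.1% of all measured genes were lower.

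**Figure D5:**
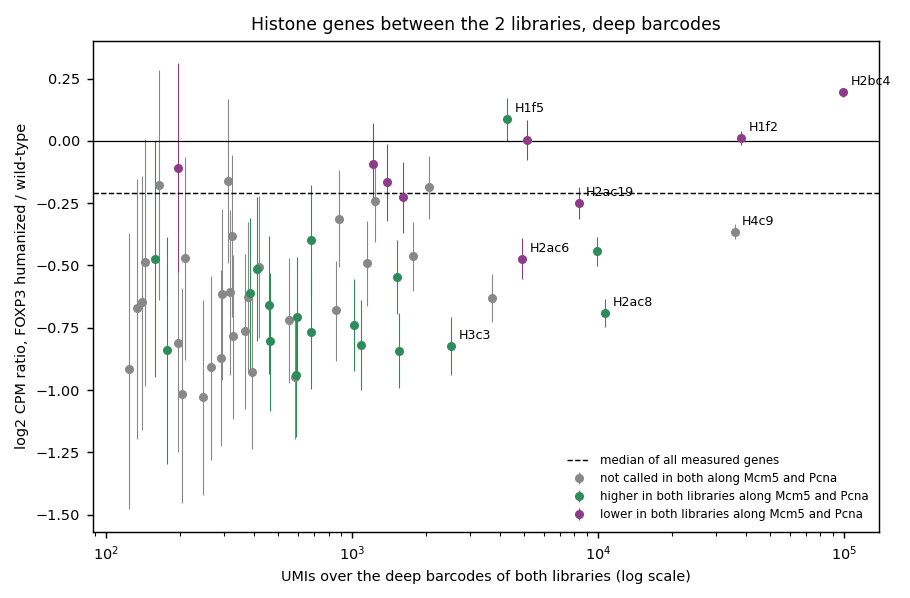
Log2 ratio of CPM (FOXP3 humanized over wild-type) of the 57 measured histone genes against their UMIs in both libraries (log axis), with 95% intervals of counting error; the dashed line is the median of all measured genes, -0.21. Green (higher with Mcm5 and Pcna) and grey points lie mostly below the line, while purple points (lower with Mcm5 and Pcna), up to H2bc4 at 0.19, lie near or above it, with H2ac6 at -0.47 below.

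Position and transcript models gave a last comparison. In the RefSeq order of members along chromosome 13, H2ac6 and H2bc4 are neighbours and H1f2 is separated from them by H4c3; on chromosome 3, H3c15 and H2ac19 are neighbours. These are 5 of the 9 opposite genes. H2ac15, H2bc15, H1f5, H3c11 and H2ac22, all of which rose with Mcm5 and Pcna, form a run on chromosome 13. Yet H1f2 lies beside H3c3, and H1f4 beside H2ac6, pairs with opposite patterns. In the GENCODE M21 models, sequence continued past the stem-loop by 840 bases in H1f2, 2010 in H2ac6, 752 in H3c4, 377 in H3c15 and 35 in H2ac19. The median over these 5 opposite genes was 752 bases, against 48.5 bases over the 10 rising genes with a stem-loop, of which H1f4 (1153 bases) and H2ac8 (151 bases) ran more than 100 bases past it. Over the 20 genes called neither that held a stem-loop the median was 100.5 bases, and 10 of them ran more than 100 bases past it. The models of H2bc4 (1156 bases) and H4c11 (774 bases) held no match, and H2ac25 and H2bc24 had no model matched. AATAAA or ATTAAA stood in the last 50 bases of 1 of 18 rising genes with a model, H2ac8, and of 2 of 7 opposite genes, H1f2 and H4c11. It stood in 7 of 30 genes called neither and in 77.9% of all protein-coding genes. Models of coding sequence alone, 5 among the rising genes and 4 among those called neither, hold nothing past the stop codon. Whether the counted UMIs came from longer transcripts was not tested, since the deposited counts do not place reads within a gene.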

How the data were processed

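Single cells of MC38 tumours were captured in droplets on an MGI DNBelab C platform and sequenced on DNBSEQ-T7, per the labels' protocols. The authors deposited 1 matrix of raw UMI counts for each cDNA library. Per the file headers, PISA 1.0 made them. GRCm39 is the build in the submitters' processing notes, while no source used here names the aligner or annotation. From the deposited counts, each barcode with 5000 or more UMIs was thinned to 5000 UMIs (seed 1) to place it on an axis, while levels used the full counts summed over barcodes. The 25th, 50th and 75th percentiles of thinned Mcm5 plus Pcna UMIs were 0, 0 and 1, so the planned 4 classes became 3, and those of Mki67 were all 0, which left 2. Folds carry exact conditional intervals, levels exact Poisson intervals and shares exact binomial (Clopper-Pearson) intervals at 95%, with no test, and the fold rule was tested on simulated data. Doublets were not called; leaving out the 5% of barcodes with the most UMIs was an alternative. Members, lists and rules were chosen with earlier results of these data known. Named members are the 25 with the most UMIs (of those with 200 or more), those lower along an axis in both libraries and those that differ between libraries; genes of the fixed lists are named where called in both libraries along Mcm5 and Pcna, with the 4 most abundant replication-independent histones. Outside it, H2ac10, H2bc11, H2bc18, H2bc22 and H3c1 were named after their values were seen. The 27 other measured genes that are higher with H2bc4 are outside it too, and those named were chosen likewise. Promoter sequences are from RefSeq on GRCm38.p6 and transcripts from GENCODE M21, a build other than the counts', so only sequences, symbols, gene order and the GRCm38.p6 positions of the printed sequences were used. Python 3.11.15, numpy 2.4.6, scipy 1.17.1, pandas 2.3.3 and matplotlib 3.10.9 were used.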

Additional observations from a re-analysis of the deposited data

How the results depend on the processing

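The counts of called members and the values of 48 named members along Mcm5 and Pcna, along Mki67 and between the libraries were recomputed, where a setting applies, with 10000 UMIs per barcode, no leukocyte gate, without the 5% of barcodes with the most UMIs, over nuclear genes only, without the richest barcode of each gene, at 20 UMIs per gene, at a lower fold (between 1 and 1.5) and a fold of 2, with 4 equal classes of unthinned CPM, a second thinning seed, the 2 gene lists as axes, and library ratios centred or averaged over classes. The crossed states and the comparison by H2bc4 were not recomputed. Of 2592 such values of named genes, 2342 kept their direction and side of the threshold, 102 newly passed it, 146 no longer did and 2 changed sign. Both were H2bc24 along Mki67 in the humanized library, 0.506 as reported, 1.06 with classes of unthinned CPM and 3.05 on the G2 and mitosis list. At a fold of 2, 8 members followed and 4 opposed Mcm5 and Pcna, 11 followed Mki67, and 2 were lower in the humanized library, as were 2.88% of all genes. At the lower fold, 2 members opposed Mki67 and 32.3% of all genes were lower in the humanized library. On the S-phase list 28 members followed, and on the G2 and mitosis list 40 followed and 3 opposed. With the second thinning seed, 23 members followed and 9 opposed Mcm5 and Pcna, and 20 followed Mki67. With classes of unthinned CPM, 26 followed and 13 opposed Mcm5 and Pcna, and 34 followed Mki67. Shares of all genes along these axes are not given for the other folds, the second seed or the unthinned classes. Whether the counts of members changed more than those of other genes was not tested. Centred on the median of all genes, 14 members and 6.33% of genes were lower. Apart from the fold of 2, 17 or 18 of the 18 rising and 8 or 9 of the 9 falling genes kept their call under each setting run on that axis. These figures count only genes that were kept, and other members joined either group under some settings. No paired analysis was possible because each genotype has 1 library. Limits are the single library per genotype, thinned UMIs of 2 genes that leave most barcodes at 0, members with few UMIs, and reads that near-identical copies could share.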

Other observations

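Barcodes of T cells, those with under 5000 UMIs and 2 or more UMIs of Cd3e, Cd3d and Cd3g, gave a comparison level for the same genes. There were 84 in the wild-type library (median 1796.5 UMIs) and 134 in the FOXP3 humanized library (median 1567.5 UMIs). All histone members together stood at 451 CPM (354 to 567) and 326 CPM (258 to 408) there, against 969.6 and 896.6 CPM in deep barcodes. H2bc4 was at 61.8 CPM (29.6 to 114) and 84.8 CPM (51.8 to 131), below its deep levels of 342 and 391 CPM. H1f2 was at 148 CPM (95.0 to 221) and 55.1 CPM (29.3 to 94.2), from 24 and 13 UMIs. In wild-type its interval held the deep level of 141 CPM. H1f4 was at 61.8 CPM (29.6 to 114) and 25.4 CPM (9.33 to 55.4), against 42.6 and 31.3 CPM in deep barcodes. H2ac19 was at 49.4 CPM (21.3 to 97.4) and 21.2 CPM (6.88 to 49.5), against 33.6 and 28.3 CPM. For both genes the intervals held the deep level in each library. H1f5 had 0 UMIs in either set, for which the exact interval reaches 22.8 CPM in wild-type and 15.6 CPM in humanized T barcodes. Its wild-type deep level of 15.3 CPM lay within that interval and could not be told from it. The humanized deep level of 16.3 CPM (15.6 to 16.9) lay near the limit. T barcodes were fewer and shallower than the deep ones.

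Among the 27 genes other than histones that were higher with H2bc4 in barcodes low on both lists, Greb1l was 8.37-fold and 7.98-fold higher, Egln3, a prolyl hydroxylase that acts on hypoxia-inducible factor, 1.98-fold and 2.02-fold, and Hexim1, an inhibitor of the elongation factor P-TEFb, 1.75-fold and 1.63-fold (wild-type and humanized). Greb1l had only 290 UMIs over all deep barcodes of both libraries, against 3937 for Egln3 and 6202 for Hexim1. Its large folds thus rest on few molecules. Genes other than histones among the 43 lower with Mcm5 and Pcna in both libraries included the interferon-induced Ifit1, at 0.434-fold and 0.292-fold, Ifit3, at 0.585-fold and 0.653-fold, and Neu1, a lysosomal sialidase, at 0.509-fold and 0.443-fold. All were chosen after their values were seen.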
